A study of Sus scrofa with 4 samples.

Results

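The longissimus dorsi, the long muscle of the back, was profiled by RNA sequencing in 4 pig breeds, and the Tibetan pig library was set against those of the other 3. TP is the Tibetan pig and DSP the Diannan Small Ear pig, both indigenous Chinese breeds, while LL is the Landrace and YY the Yorkshire pig, both introduced breeds. Each breed was represented by 1 library, and how many animals stood behind it, their sex, age and feeding are not stated in the labels. With 1 library per breed there is no spread between animals of a breed, so no test was made and every difference below describes these 4 libraries.

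A gene was counted as set apart in TP when its log2(FPKM + 1) lay at least 1 unit above the highest, or at least 1 unit below the lowest, of DSP, LL and YY. FPKM, the number of fragments scaled to transcript length and to all mapped fragments, is a level per length as the authors deposited it. Of 18208 entries, 11508 had a mean of at least 1 FPKM and a locus span of at least 300 bp, 6556 fell under the mean and a further 144 were too short. Of the 11508, 462 were set apart in TP, of which 218 were higher (1.89%) and 244 lower (2.12%). The distance from TP to the nearest of the other libraries on that scale is called the gap, positive when TP is the highest of the 4. The scale draws small values toward 0, so the gap understates the change of low genes.

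Skeletal muscle stores energy as glycogen and as fat, and the fat lies both in droplets inside the fibres and in fat cells lying between them. Fat is built where insulin and carbohydrate supply are high, through citrate, fatty acid synthase and stearoyl-CoA desaturase. During fasting, muscle instead burns fatty acids, holds back pyruvate with the kinase PDK4, and breaks down its own proteins through the ubiquitin ligases FBXO32 and TRIM63, which FOXO transcription factors switch on.

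The labelled tissue was checked with 9 skeletal muscle markers found in the table, whose FPKM summed to 114197 in TP, while DSP had 92484, LL 42837 and YY 157548. ACTA1, the actin of skeletal muscle fibres, stood at 47397 FPKM in TP, against 39517 (DSP), 16778 (LL) and 50812 (YY), and none of the 9 was highest in TP. The deposited values themselves differed in total between libraries: FPKM summed to 880279 in TP, the smallest of the 4, and to between 1067280 and 1450760 in the others. The mitochondrial genome supplied 33.2% of the FPKM in TP and 24.0% to 29.3% elsewhere. Loci shorter than 300 bp took 1.39% in TP, while DSP had 20.6%, LL 17.7% and YY 5.55%. USP9Y, a gene of the Y chromosome, was at 9.89 FPKM in TP, with DSP at 3.72, LL at 4.65 and YY at 0.0218. The higher genes include entries placed on the Y chromosome, namely DDX3X, ENSSSCG00000012178 and ENSSSCG00000029864. DDX3X was at 42.6 FPKM in TP, with DSP at 11.8, LL at 18.6 and YY at 0.0604. The part of the animals' sex in any difference was not tested.

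The same rule applied to each other breed in turn gave 149 genes higher and 32 lower in DSP (1.29% and 0.278%), 122 higher and 172 lower in LL (1.06% and 1.49%), and 309 higher and 264 lower in YY (2.69% and 2.29%). TP therefore had fewer genes set apart than YY, which had 573, and more than LL, with 294, and DSP, with 181. TP was the lowest of the 4 libraries in 34.5% of the 11508 genes and the highest in 16.2%, and the median over all genes of TP minus the mean of the other 3 was −0.16. The lower set depended on the scale of the libraries. When the libraries were rescaled to a common median ratio, 314 genes were higher and 136 lower, so that 69.8% of the genes set apart were higher instead of 47.2%. With a common sum over nuclear loci of at least 300 bp, 368 were higher and 83 lower, or 81.6% higher. These scalings moved the median over all genes to 0.02 and 0.12. Of the 218 higher genes 217 kept their call under both scalings, and of the 244 lower genes 80 did. The median ratio divided TP by 0.896, and DSP, LL and YY by 1.09, 0.986 and 1.05. The common sum divided TP, DSP, LL and YY by 0.825, 1.15, 0.811 and 1.21. Both thus raised TP against DSP and YY, which left little room to lose a higher call. The 217 kept calls therefore say little about how firm the higher set is. Leaving out YY raised the counts to 654 higher and 1006 lower. Under this rule, leaving out a library can widen a gap but not narrow it.

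**Figure D1:**
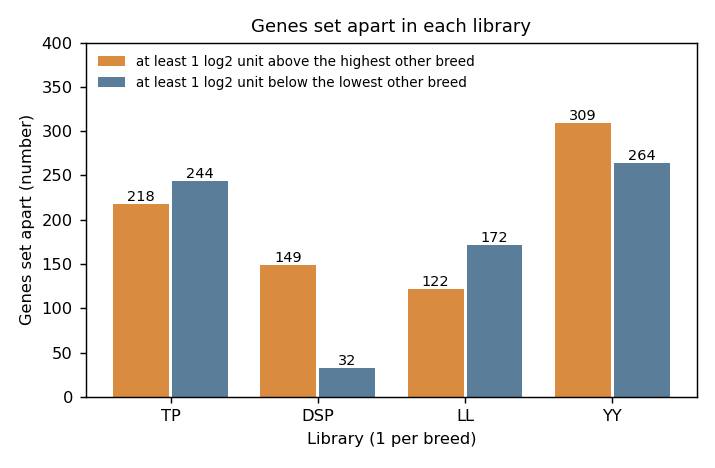
Number of genes set apart in each library, by the same rule with each breed in the place of TP; the horizontal axis gives the 4 libraries and the vertical axis the number of genes. TP had 218 genes above and 244 below all others, against 309 and 264 in YY.

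Most genes of fatty acid synthesis had their highest level in TP, 12 of the 15 measured. Of these 15 members of the list 8 were set apart higher, against 1.89% of all genes, and none lower. The list's median difference was 1.35. SCD, the desaturase that makes monounsaturated fatty acids, reached 141 FPKM in TP, while DSP had 4.08, LL 2.39 and YY 1.19, a gap of 4.80. THRSP (SPOT14 in the files), a nuclear protein that promotes lipogenesis, was at 23.6 FPKM in TP, against 0.297 (DSP), 0.0444 (LL) and 0 (YY), a gap of 4.24. In both genes TP lay far above the other 3 breeds, of which DSP was the highest.

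FASN, which builds palmitate, stood at 50.4 FPKM in TP, with DSP at 9.52, LL at 3.83 and YY at 1.69, a gap of 2.29. ELOVL6, which lengthens palmitate to stearate, was at 14.4 FPKM in TP, while DSP had 2.03, LL 0 and YY 0.465, a gap of 2.34. ACLY, which releases acetyl-CoA from citrate, was at 23.8 FPKM in TP, against 7.02 (DSP), 6.27 (LL) and 2.27 (YY), a gap of 1.63. In each of these 3 genes DSP was the second highest library. ACACA, which makes the malonyl-CoA used by FASN, just passed with 5.05 FPKM in TP, with DSP at 2.003, LL at 1.91 and YY at 0.382, a gap of 1.01. The desaturases of polyunsaturated fatty acids also passed, with gaps of 1.17 for FADS1 and 1.08 for FADS2. YY was the lowest library for FASN, ACLY and ACACA. ACACB, whose malonyl-CoA restrains fatty acid entry into mitochondria, ran the other way without being set apart, at 9.18 FPKM in TP, while DSP had 22.1, LL 20.3 and YY 16.5. An unnamed entry 13877 bp beyond the end of FASN on chromosome 12, ENSSSCG00000023044 (1048558 to 1052166 as deposited, genome build not given in the sources used here), was higher as well, at 83.9 FPKM in TP, against 8.39 (DSP), 2.84 (LL) and 4.15 (YY).

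Cholesterol synthesis had 5 of 12 measured members set apart higher, against 1.89% of all genes, none lower, and a median of 1.26. Among them were LSS, CYP51A1, MSMO1 and SC5D, which catalyse late steps from squalene epoxide to cholesterol, with gaps between 1.04 and 1.26. CYP51A1, the lanosterol demethylase, was at 13.4 FPKM in TP, with DSP at 5.76, LL at 4.27 and YY at 4.05. HMGCS1, an early enzyme of the pathway, was not set apart, at 11.7 FPKM in TP, while DSP had 12.2, LL 9.56 and YY 6.57. SCARB1, a lipoprotein receptor, fell just outside the rule with a gap of 0.99.

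Several fat cell genes were also higher. Of 8 measured adipocyte markers 4 were set apart higher, against 1.89% of all genes, and none lower, with a median of 1.40. TP was the highest library in 6 of the 8 and the lowest in 2, AQP7 and TMEM120B. PLIN1, the droplet coat of fat cells, was at 11.5 FPKM in TP, against 1.80 (DSP), 1.38 (LL) and 1.01 (YY), a gap of 2.16. CIDEC, a droplet fusion protein, was at 10.8 FPKM in TP, with DSP at 1.73, LL at 1.14 and YY at 1.70, a gap of 2.11. The other breeds lay within 1 FPKM of each other in both genes. TRARG1 (TUSC5 in the files), a partner of the glucose transporter in fat cells, had a gap of 2.02, and CEBPA, a transcription factor of fat cell formation, one of 1.10. PPARG, the other main factor of that programme, was at 2.21 FPKM in TP and at most 0.815 elsewhere, short of the rule at a gap of 0.82. CFD, or adipsin, was at 97.4 FPKM in TP, while DSP had 20.8, LL 29.4 and YY 63.5. YY was thus the second highest library for CFD and the lowest for PLIN1. AQP7, the glycerol channel of fat cells, ran the other way without being set apart, at 2.24 FPKM in TP, against 7.04 (DSP), 7.79 (LL) and 2.88 (YY). Leptin had a mean under 1 FPKM, with 0.478 in TP and 0 in the other 3.

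The FPKM of the 4 adipocyte markers found among the 6 sought summed to 120 in TP, against 24.4 (DSP), 31.9 (LL) and 66.2 (YY), and all 4 were highest in TP, unlike AQP7 and TMEM120B of the longer list. CFD, which was not set apart, made up most of each sum, with 97.4 FPKM in TP and 63.5 in YY. Leptin, another of the 4, had a mean under 1 FPKM. ADIPOQ and FABP4 were not found by name. In such bulk libraries more fat cells and more RNA of these genes per cell cannot be told apart, and the part of fat cells in the values of SCD, FASN and the sterol genes was not tested.

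**Figure D2:**
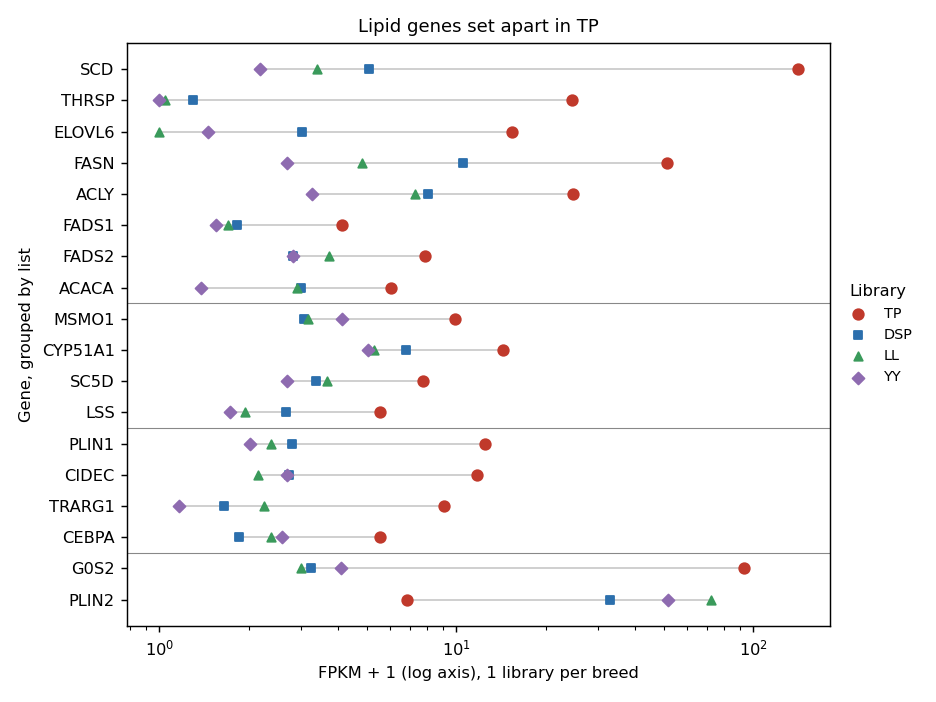
FPKM + 1 on a log axis in the 4 libraries for lipid genes set apart in TP, grouped from the top as fatty acid synthesis, cholesterol synthesis, adipocyte markers, and lipolysis and lipid droplets. Each marker is 1 library; TP lies to the right of all others except for PLIN2, where it lies to the left.

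Proteins that govern stored fat stood at opposite ends of the list of lipolysis and lipid droplets, in which 1 of 9 measured members was higher and 1 lower. Over all genes 1.89% were higher and 2.12% lower, so a list of about this size would hold few or none. G0S2, the inhibitor of the triglyceride lipase PNPLA2, was at 92.0 FPKM in TP, with DSP at 2.24, LL at 2.01 and YY at 3.09, a gap of 4.51. PLIN2, which coats droplets in muscle fibres and most other cells, was at 5.84 FPKM in TP, while DSP had 32.0, LL 71.3 and YY 50.9, a gap of −2.27. G0S2 was thus low in all 3 other breeds, and PLIN2 was low in TP. The lipase PNPLA2 itself was similar, at 66.5 FPKM in TP, against 68.9 (DSP), 73.3 (LL) and 94.1 (YY). PLIN5, which ties droplets to mitochondria, was at 5.86 FPKM in TP and between 3.46 and 5.398 in the others. In triglyceride assembly only LPIN1, a phosphatidate phosphatase that also acts as a transcriptional coactivator, was set apart among 10 measured members, at 11.3 FPKM in TP, with DSP at 55.4, LL at 55.4 and YY at 61.9, a gap of −2.19. DGAT1, the last enzyme of that path, was at 3.68 FPKM in TP, while DSP had 2.82, LL 3.18 and YY 4.86, within the range of the other breeds.

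Many genes of the fasting and PPAR response were lower in TP. Of 19 measured members 8 were set apart lower, against 2.12% of all genes, and none higher, with a median of −0.83. Of the 8, 4 kept their call under both scalings. PDK4, which switches off pyruvate dehydrogenase, had the largest negative gap of the genes averaging 5 FPKM or more, −4.61, with 21.4 FPKM in TP, against 692 (DSP), 546 (LL) and 665 (YY). The other 3 breeds lay close together, and TP lay far below them. LPIN1, FKBP5 and MT2A also kept their call. FKBP5, a chaperone induced by glucocorticoids, was at 28.3 FPKM in TP, with DSP at 220, LL at 267 and YY at 92.7, a gap of −1.68. PPARGC1A, the coactivator of mitochondrial genes, was at 4.23 FPKM in TP, while DSP had 26.2, LL 12.4 and YY 11.0, and its gap of −1.197, like those of SESN1, KLF15 and KLF9, did not stay past the threshold under both scalings. Other members stood within the range of the other breeds, among them TXNIP, at 550 FPKM in TP, against 492 (DSP), 420 (LL) and 712 (YY), and TSC22D3, another glucocorticoid target, at 82.7 in TP and between 80.8 and 96.6 in the others.

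The uptake and oxidation of fatty acids had 2 lower members of 26, and none higher. Over all genes 2.12% were lower and 1.89% higher, so a list of this size would hold few or none. UCP3, the mitochondrial carrier that follows fatty acid supply, was at 9.20 FPKM in TP, with DSP at 154, LL at 54.9 and YY at 83.1, a gap of −2.45. ACSL1, which activates fatty acids, was at 80.2 FPKM in TP, while DSP had 260, LL 241 and YY 185, a gap of −1.19 that was lost under both scalings. CPT1B, the gate of mitochondrial fatty acid entry, was at 27.8 FPKM in TP, against 68.3 (DSP), 78.0 (LL) and 48.7 (YY), short of the rule. The list's median was −0.21, near the −0.16 of all genes, and turned to 0.12 with the common sum.

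Genes of muscle protein breakdown were lower in 7 of 26 measured members, against 2.12% of all genes, and higher in none. The median was −0.62. FBXO32, or atrogin-1, was at 15.2 FPKM in TP, with DSP at 195, LL at 306 and YY at 158, a gap of −3.29. TRIM63, or MuRF1, was at 105 FPKM in TP, while DSP had 457, LL 604 and YY 619, a gap of −2.11. TP lay below the range of the other breeds in both. FOXO1, which drives both, was at 8.49 FPKM in TP, against 36.4 (DSP), 21.9 (LL) and 28.2 (YY), a gap of −1.27. SQSTM1, an autophagy receptor, was at 186 FPKM in TP, with DSP at 678, LL at 586 and YY at 1123, a gap of −1.65. These 4 kept their call under both scalings. FOXO3, ULK1, which starts autophagy, and CAST, which inhibits calpains, had gaps of −1.30, −1.11 and −1.37 and did not.

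Of the proteasome itself, 2 of 28 measured subunits were set apart lower, or 7.14%, against 2.12% of all genes. These were PSMD11 and PSMB3, with gaps of −1.22 and −1.16, and neither kept its call under both scalings. TP was the lowest library in 19 of the 28, against 34.5% of all genes. PSMD2, just outside the rule, stood at 81.9 FPKM in TP, while DSP had 234, LL 207 and YY 164. Insulin and mTOR signalling genes had a median of −0.53 and only FOXO1 set apart among 16 measured members, while INSR, the insulin receptor, was at 7.77 FPKM in TP, against 26.8 (DSP), 28.9 (LL) and 11.7 (YY).

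**Figure D3:**
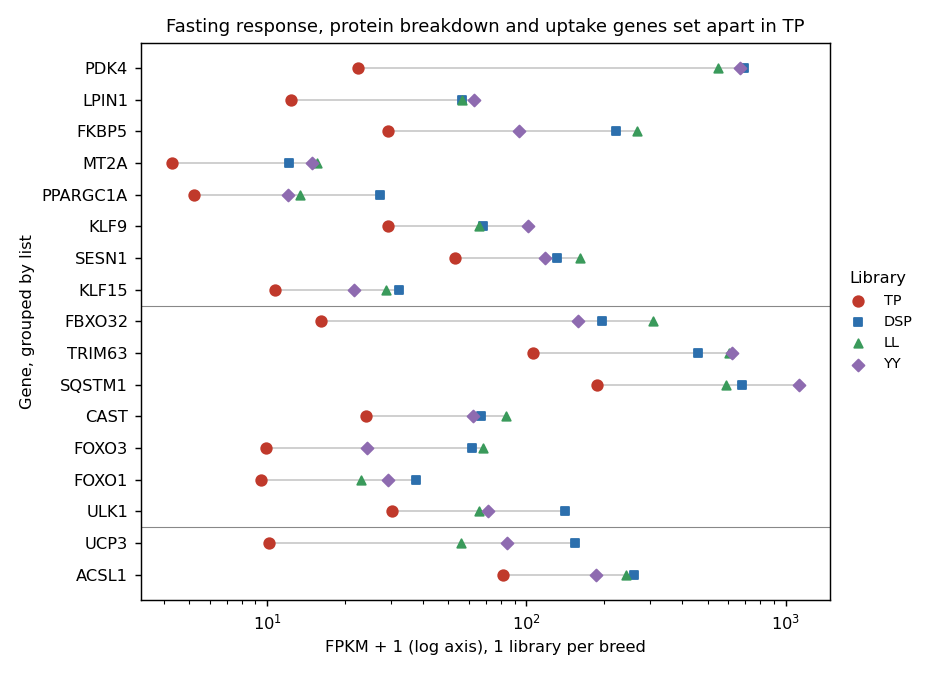
FPKM + 1 on a log axis in the 4 libraries for the genes set apart in TP from 3 lists, from the top the fasting and PPAR response, muscle protein breakdown, and fatty acid uptake and oxidation. Each marker is 1 library, and TP lies to the left of the other breeds in all of them, farthest for PDK4.

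The other large negative gaps belonged to fibre proteins and enzymes. AMPD3, an AMP deaminase, was at 1.31 FPKM in TP, with DSP at 24.3, LL at 81.2 and YY at 28.1, a gap of −3.45. NOS1, the nitric oxide synthase anchored under the fibre membrane, was at 1.93 FPKM in TP, while DSP had 31.5, LL 37.97 and YY 18.9, a gap of −2.76. LL was the highest library in both. CSRP3, the muscle LIM protein of the Z-disc, was at 53.4 FPKM in TP, against 290 (DSP), 391 (LL) and 577 (YY), a gap of −2.42. KLHL40, which stabilises thin filament proteins, was at 67.8 FPKM in TP, with DSP at 342, LL at 373 and YY at 299, a gap of −2.12. TP was below the whole range of the other breeds in each, and all 4 calls held under both scalings. DIAPH1, a formin that nucleates actin, the lipid hydrolase ABHD2, the palmitoyltransferase ZDHHC9 and the entry CHURC1-FNTB, a read-through locus, had gaps of −2.49, −2.24, −2.11 and −3.23. ENSSSCG00000008843, which shares its locus with another entry, was listed at 0 in TP and at 112 (DSP), 93.4 (LL) and 4.28 FPKM (YY).

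CSRP3 and KLHL40 led to a wider list of Z-disc, M-band and thin filament genes, written after these values were seen. Of its 38 measured members 13 were set apart lower, against 2.12% of all genes, and none higher. The median was −1.09, and TP was the lowest library in 24, against 34.5% of all genes. CSRP3 and KLHL40, which prompted the list, are among the 13, so the count is no independent support. The 13 included ANKRD2, a stretch-responsive ankyrin repeat protein, at 24.0 FPKM in TP, while DSP had 105, LL 146 and YY 401, a gap of −2.08. PDLIM3, which binds alpha-actinin, was at 981 FPKM in TP, against 2756 (DSP), 2524 (LL) and 7328 (YY). FLNC, the filamin of muscle, was at 411 FPKM in TP, with DSP at 1484, LL at 873 and YY at 1925. CSRP3, ANKRD2, KLHL40, PDLIM3 and NEXN kept their call under both scalings, and the other 8, among them FLNC, MYPN, XIRP2, MYOZ3 and MYOM3, did not. Among Kelch-like genes, a family listed likewise after the values were seen, 4 of 25 measured members were lower, against 2.12% of all genes. They were KLHL40, KLHL38, KLHL29 and KLHL21, and the call of KLHL21 was not kept under both scalings. KLHL40 is counted in both lists and was seen to be low before either was written. KLHL38 lies on chromosome 4 at 16543622 to 16545044 and FBXO32 at 16638621 to 16669461, and KLHL38 was at 18.03 FPKM in TP, while DSP had 99.3, LL 100.4 and YY 58.8.

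Of the contractile genes that tell fibre types apart, none of 12 fast fibre genes was set apart and of 11 slow fibre genes only CSRP3. Over all genes 1.89% were higher and 2.12% lower, so lists of this size would hold few or none. MYH7, the slow myosin heavy chain, was at 810 FPKM in TP, against 1115 (DSP), 1807 (LL) and 1391 (YY). MYH1, a fast heavy chain, was at 7886 FPKM in TP, with DSP at 14097, LL at 5708 and YY at 9131, so TP lay inside the range of the others. The medians were −0.06 for fast and −0.13 for slow genes, and both turned positive under both scalings. The 9 skeletal muscle identity genes had none set apart and a median of 0.36, which was −0.07 with LL left out. Of the embryonic and regenerating fibre genes, NCAM1, a cell adhesion molecule that denervated fibres of rodents express, was lower at 4.52 FPKM in TP, while DSP had 29.8, LL 26.5 and YY 16.8, and RUNX1, a transcription factor raised by denervation in mice, had a gap of −1.53. Of 19 myogenic and growth factors, FST, the follistatin that binds myostatin, and MYMK (TMEM8C in the files), the fusogen of myoblasts, were higher, with gaps of 1.13 and 1.28. Of the 19, TP was the highest library in 6 and the lowest in 5. IGF2, a growth factor and the most abundant of them, was lowest in TP without being set apart, at 9.03 FPKM in TP, against 682 (DSP), 781 (LL) and 9.66 (YY), so TP and YY lay far below the other 2 libraries.

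Enzymes of energy supply gave few members, where 1.89% of all genes were higher and 2.12% lower. Glycolysis, the citric acid cycle, the nuclear subunits of the respiratory chain and the mitochondrially encoded genes had 0 set apart among 16, 22, 60 and 13 measured members. Their medians were 0.43, 0.09, 0.62 and 0.80, and 11 of the 13 mitochondrially encoded genes were highest in TP, as was their share of the summed FPKM. Glycolysis and the citric acid cycle turned to −0.03 and −0.15 with LL left out. In glycogen metabolism UGP2, which makes UDP-glucose, was lower at 50.3 FPKM in TP, against 130 (DSP), 125 (LL) and 156 (YY), and lost its call with the common sum. The cytosolic ribosomal proteins had 0 of 61 set apart and a median of 0.46, and the translation factors 0 of 30 and −0.35.

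Immediate early genes, which cells switch on within minutes of a stimulus, were higher in 11 of 26 measured members and lower in none. Over all genes 1.89% were higher. The list's median was 1.28. FOS, a subunit of the AP-1 transcription factor, was at 641 FPKM in TP, with DSP at 47.1, LL at 112 and YY at 109, a gap of 2.51. BTG2, an antiproliferative protein, was at 513 FPKM in TP, while DSP had 45.7, LL 51.9 and YY 66.6, a gap of 2.93. ATF3, a stress-induced transcription factor, was at 394 FPKM in TP, against 34.3 (DSP), 25.3 (LL) and 52.7 (YY), a gap of 2.88. In all 3 the other breeds stayed well below TP. NR4A2, KLF4, EGR1, IER2, IER3, IER5, CYR61 and CTGF passed with gaps between 1.07 and 2.29. JUN, NR4A1 and SOCS3 did not: JUN was at 209 FPKM in TP, with DSP at 116, LL at 131 and YY at 176, and NR4A1 at 193 in TP, while DSP had 169, LL 58.4 and YY 49.2.

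Heat shock genes did not share this direction. Their median was −0.71 over 27 measured members, with none set apart higher, and HSP90AA1, a cytosolic chaperone, lower at 291 FPKM in TP, against 595 (DSP), 606 (LL) and 1185 (YY), a call that neither scaling kept. Among other genes singled out after their values were seen, the deubiquitinase OTUD1 was at 360 FPKM in TP, with DSP at 38.9, LL at 78.6 and YY at 80.9. ID1, ID2 and ID3, inhibitors of basic helix-loop-helix factors, were 3 of the 4 ID genes and all set apart higher, against 1.89% of all genes. ID1 was at 39.8 FPKM in TP, while DSP had 7.47, LL 6.06 and YY 6.85.

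**Figure D4:**
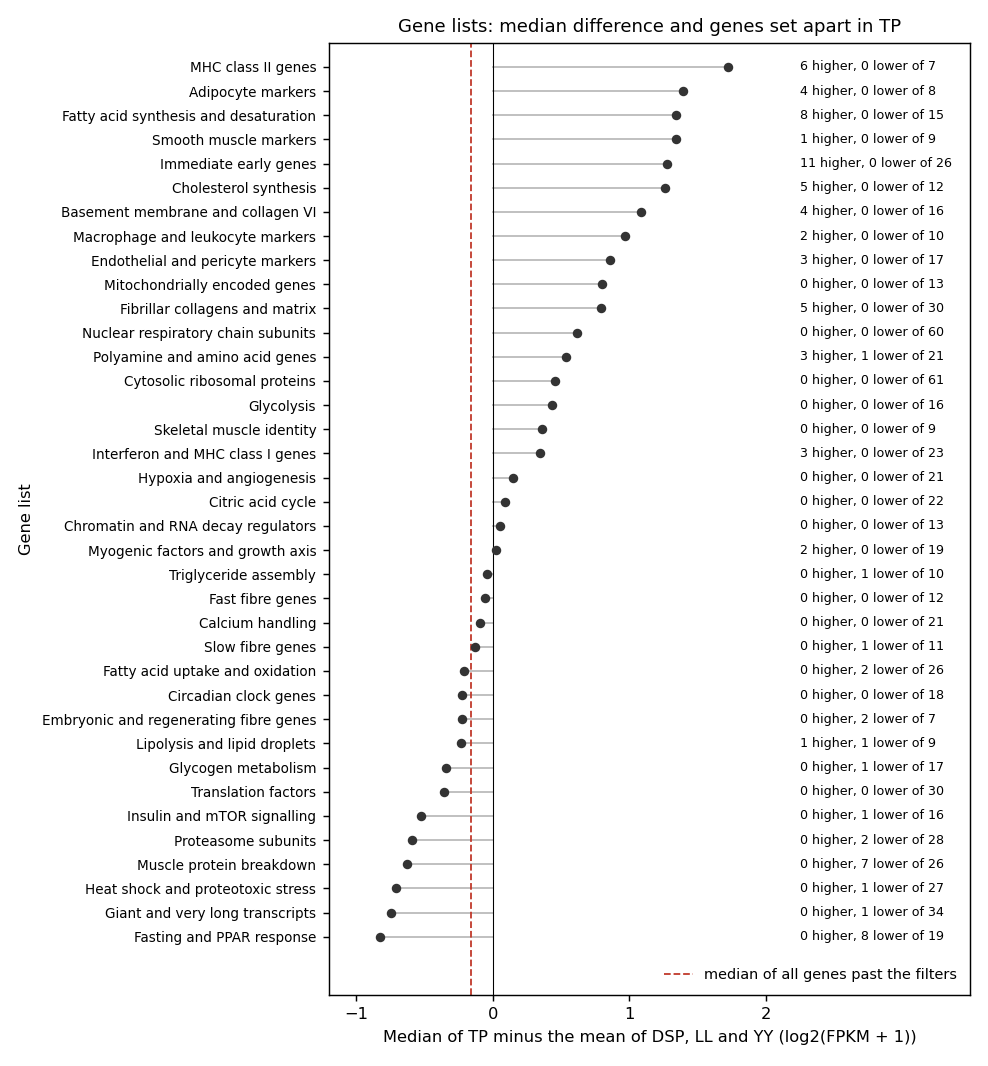
Median over each gene list of TP minus the mean of DSP, LL and YY on log2(FPKM + 1), with the number of members set apart at the right and the median of all genes, −0.16, as a dashed line. Of the 37 lists drawn, which leave out the Z-disc, proteoglycan, ID and Kelch-like lists, MHC class II genes stand at the top with 1.73 and the fasting and PPAR response at the bottom with −0.83.

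MHC class II genes, which present antigen on macrophages, dendritic cells and B cells, were higher in 6 of 7 measured members. Over all genes 1.89% were higher. The list's median was 1.73. SLA-DRA (SLA-DRA1 in the files), the alpha chain of the DR molecule, was at 134 FPKM in TP, against 33.7 (DSP), 34.3 (LL) and 37.7 (YY), a gap of 1.80. SLA-DQA1 was at 55.6 FPKM in TP, with DSP at 13.7, LL at 15.02 and YY at 12.0, a gap of 1.82. The other breeds barely differed from each other in either gene. SLA-DQB1, SLA-DRB1 and the peptide loading genes SLA-DMA and SLA-DMB had gaps between 1.23 and 1.65. CIITA, the transactivator of these genes, was the measured member not set apart, at 1.42 FPKM in TP, while DSP had 1.49, LL 1.23 and YY 0.555. The DR and DQ genes lie side by side on chromosome 7, SLA-DRA starting at 29036551 and SLA-DQB1 ending at 29188688 as deposited, and SLA-DRB4 and SLA-DRB2 between them were set apart higher too. These loci are closely related copies, so reads may have been split between them and the level of any single copy is uncertain. SLA-6, SLA-7 and SLA-8 of class I were higher with gaps of 1.01, 1.23 and 1.17. In all, 3 of 23 interferon and class I genes were set apart, each of them higher, against 1.89% of all genes.

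Some macrophage genes were higher as well. C1QA and C1QC, subunits of complement C1q made by tissue macrophages, were at 15.1 and 15.1 FPKM in TP, 1.62 and 2.57 in DSP, 1.71 and 3.21 in LL, and 3.84 and 3.73 in YY, and they were the 2 set apart among 10 macrophage and leukocyte markers. Over all genes 1.89% were higher. CD68 was at 2.06 FPKM in TP and between 2.88 and 3.71 in the others. The 4 macrophage markers found of 6 summed to 22.7 FPKM in TP, against 6.46 (DSP), 8.19 (LL) and 9.40 (YY), with 2 of the 4 highest in TP and none at 0. C1QA, itself set apart, made up 15.1 FPKM of the sum in TP, and 1.62 in DSP, 1.71 in LL and 3.84 in YY. CD68, another of the 4, was lower in TP than in the others. The part of macrophages in the class II values was not tested.

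Vessel, blood and connective tissue genes were on the higher side as well. Of 17 endothelial and pericyte markers ESAM, ROBO4 and CD34 were set apart higher, against 1.89% of all genes. Their gaps were 1.12, 1.26 and 1.28. TP was the highest library in 14 of the 17, against 16.2% of all genes. CD34, a surface protein of endothelium and progenitors, was at 16.6 FPKM in TP, with DSP at 6.002, LL at 6.24 and YY at 4.86. Genes singled out later among those set apart were SOX17 and HEY1, transcription factors of arteries, and DLL4, a Notch ligand, at 5.17, 3.598 and 5.55 FPKM in TP and at most 1.58, 0.903 and 2.01 in the others. ACTA2, the actin of smooth muscle, was at 70.6 FPKM in TP, against 27.1 (DSP), 28.4 (LL) and 26.3 (YY), a gap of 1.28.

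HBA and HBB, the haemoglobin chains, were at 204 and 321 FPKM in TP, 36.7 and 117 in DSP, 43.0 and 126 in LL, and 24.0 and 56.6 in YY. The 3 red blood cell markers summed to 528 FPKM in TP, with DSP at 156, LL at 171 and YY at 80.9. Smooth muscle markers summed to 194 FPKM in TP, while DSP had 48.4, LL 58.0 and YY 94.8, and endothelial ones to 92.2 in TP, against 56.8 (DSP), 71.9 (LL) and 34.1 (YY). The share of blood and vessels in each muscle piece was not measured, and its part in these values was not tested.

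The matrix genes set apart were mainly proteoglycans, collagen VI and collagen-binding proteins, not the fibrillar collagens. COL6A1 was at 43.4 FPKM in TP, with DSP at 10.1, LL at 9.03 and YY at 5.81, a gap of 2.001, and COL6A2, COL4A2 and the collagen chaperone SERPINH1 had gaps of 1.53, 1.29 and 1.17, so that 4 of 16 basement membrane and collagen VI genes were higher. Of 30 fibrillar collagen and matrix genes MGP, LUM, MMP2, DCN and THY1 were higher. The share higher over all genes was 1.89%. MGP, an inhibitor of calcification, was at 178 FPKM in TP, while DSP had 28.6, LL 38.7 and YY 52.8, a gap of 1.73. COL1A1 was at 234 FPKM in TP, against 355 (DSP), 240 (LL) and 30.0 (YY), and COL3A1 at 277 in TP, with DSP at 154, LL at 128 and YY at 19.2, so YY was the library apart in both. The 5 fibroblast markers, most of them collagens, summed to 861 FPKM in TP, while DSP had 689, LL 534 and YY 127.

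The small leucine-rich proteoglycans, listed as a family after the values were seen, had 6 of 10 measured members set apart higher, against 1.89% of all genes. In 8 of the 10 TP was the highest library, against 16.2% of all genes. DCN, which binds collagen fibrils, was at 205 FPKM in TP, against 88.6 (DSP), 97.6 (LL) and 63.4 (YY). OGN was at 27.5 FPKM in TP, with DSP at 7.24, LL at 6.49 and YY at 4.40. LUM, ASPN, ECM2 and KERA had gaps between 1.38 and 1.52. DCN and LUM lie 31984 bp apart on chromosome 5, and OGN lies on chromosome 3, 1309 bp from a locus that the files give to both ASPN and ECM2.

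Among 21 genes of polyamine and amino acid handling 3 were higher and 1 lower, where 1.89% of all genes were higher and 2.12% lower. SAT1, which acetylates polyamines for export, was at 59.7 FPKM in TP, while DSP had 14.6, LL 26.8 and YY 22.2, and ARG2, an arginase, and PSPH, of serine synthesis, had gaps of 1.58 and 1.15. SMS, the spermine synthase, was at 22.8 FPKM in TP, against 64.1 (DSP), 51.3 (LL) and 91.2 (YY), and lost its call with the common sum. Of 21 hypoxia and angiogenesis genes, a group of interest for a highland breed, 0 were set apart and the median was 0.15. Over all genes 1.89% were higher and 2.12% lower, so 0 of 21 is near the general share. TP was the highest library in 8 of the 21 and the lowest in 3, against 16.2% and 34.5% of all genes. HIF1A, the oxygen-regulated factor, was at 14.7 FPKM in TP, with DSP at 8.50, LL at 8.77 and YY at 5.79, and VEGFA, the vessel growth factor, at 66.5 in TP, while DSP had 41.4, LL 36.9 and YY 39.2. Both were highest in TP by 0.69 and 0.67 on the log2 scale. EPAS1, the factor of the same family, was at 51.1 FPKM in TP, against 43.4 (DSP), 29.0 (LL) and 16.5 (YY). Circadian clock and calcium handling genes had 0 set apart among 18 and 21.

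The higher and the lower genes differed in level and in length. The median of the mean level was 4.71 FPKM for the higher and 31.8 for the lower genes, against 7.505 for all 11508. The rule itself favours this contrast. A gene could pass the filter and be called higher through TP alone, while a lower call needed at least 1 FPKM in each other library. The median locus span was 8974.5 bp for the higher and 22879.5 bp for the lower genes, against 20011.5 bp for all. In the 2299 shortest loci (300 to 5831 bp) 3.39% were higher and 2.78% lower, and in the 2299 longest (65108 bp and over) 1.17% were higher and 2.74% lower. The list of giant and very long transcripts had a median of −0.74 with 1 of 34 members, XIRP2, set apart lower, against 2.12% of all genes. The part of transcript length in the lower set was not tested. The other 3 breeds lay within 1 log2 unit of each other in 82.1% of the higher and 68.4% of the lower genes, against 62.2% of all. The scale draws small values together, so the rule may also favour the share among the higher genes. The nearest library to TP was YY in 132 of the 244 lower genes, LL in 60 and DSP in 52, while the 218 higher genes divided as 74, 71 and 73. Over all 11508 genes the same count gave YY 5093, LL 4322 and DSP 2093. It took the lowest of the other 3 libraries for every gene not called higher. YY was thus the commonest there as well.

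The size of the gap was mostly close to the threshold. It lay between 1 and 1.5 in 148 higher and 183 lower genes, and was at least 2 in 35 higher and 16 lower genes. Just inside the rule stood ENSSSCG00000003614 and IDH1 among the higher and ENSSSCG00000030402 and ENSSSCG00000020798 among the lower genes, all within 0.01 of it, and just outside TP53I11, with SCARB1, and PSMD2, with ENSSSCG00000028876. IDH1, which makes NADPH in the cytosol, was at 16.5 FPKM in TP, with DSP at 7.42, LL at 7.74 and YY at 3.65, and was the 1 higher gene that lost its call with the common sum.

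Some of the largest positive gaps belonged to entries whose meaning is limited. ENSSSCG00000018680, on the X chromosome, was at 3747 FPKM in TP and 0 in the others, and SNORA63, ssc-mir-671 and SNORA32 were at 34.03, 28.3 and 25.3 FPKM in TP and 0 in the others. All 4 share a locus with another entry, so they passed the filter on span with the locus and not with their own length, and short RNAs took the smallest share of FPKM in TP. In all, 8 higher genes were at 0 in each other library and 7 lower genes were at 0 in TP. Entries with an ID only made up 26 of the higher and 65 of the lower genes, and 27 higher and 22 lower genes share a locus, among them MSMO1, ARG2, ASPN, ECM2, SQSTM1, ULK1 and UGP2. Among named protein-coding genes outside the lists, NREP, named for nerve regeneration, was at 279 FPKM in TP, while DSP had 46.1, LL 21.5 and YY 32.1, a gap of 2.57.

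**Figure D5:**
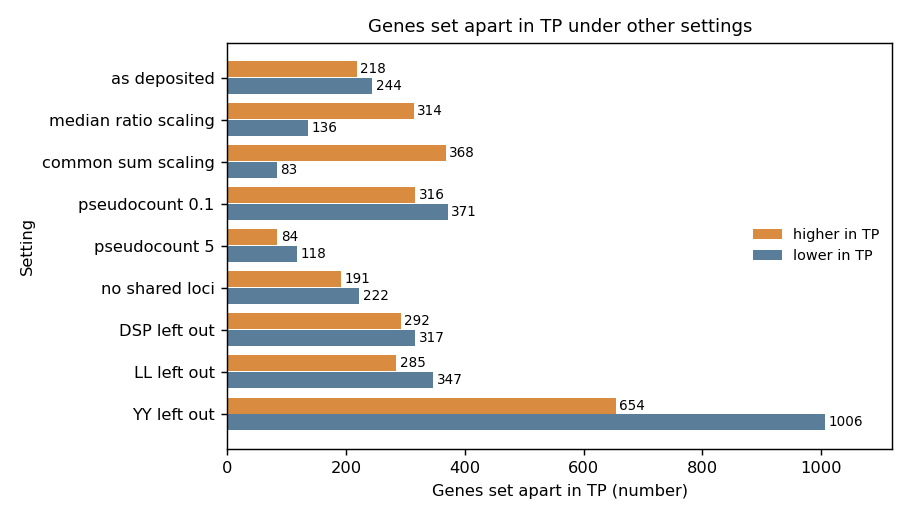
Number of genes set apart in TP as deposited and under other settings; each pair of bars gives the genes higher and lower in TP. The lower count was 83 to 371 and the higher count 84 to 368 under the scalings and pseudocounts shown. Leaving out YY, which can widen a gap but not narrow it, gave 654 higher and 1006 lower.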

How the data were processed

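RNA was extracted with Trizol, libraries were made from total RNA with a TruSeq kit and sequenced on an Illumina HiSeq, per the labels' protocols and design text. TopHat was the aligner, per the submitters' processing notes. No version of it, build, annotation or expression program is given in the sources used here, and each may change a gene's value. The authors deposited FPKM per breed, without counts or depths, so no counting error or interval could be given. The other deposited sheets, with 17444 and 17404 genes, had 0 cells that differed from the first and were not used further. No scaling was applied in the main values. Of the 11508 entries past the filters, 8216 were named in the files, 1116 by their ID from the reference tables and 2176 kept an ID only; 1564 share a locus.

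Members and lists were chosen with earlier results of these data known, so no list is independent evidence, and the lists of Z-disc genes, Kelch-like genes, ID genes and proteoglycans were written later still. There were 41 lists; 37 with at least 5 measured members have a median, that of TP minus the mean of the other 3 breeds. Genes were named by a rule: the 15 largest gaps per direction averaging 5 FPKM or more and at most 2 IDs, up to 4 members set apart per list and direction with its most abundant member, and the 2 nearest to the threshold on each side. Any other named gene was chosen after its values were seen. Symbols with several entries took the highest mean among loci of at least 300 bp. Promoter motifs were not analysed here. A few genes that the rule takes are not reported here. Python 3.11.15, numpy 2.4.6, pandas 2.3.3 and matplotlib 3.10.9 were used.

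The alternatives were pseudocounts of 0.1 and 5, other filters on level and span, both scalings, gaps of 0.5 and 2, no shared loci, and leaving out each other library. Leaving out small RNA names and ID-only entries was chosen after seeing the data.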

Additional observations from a re-analysis of the deposited data

How the results depend on the processing

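No paired analysis was possible because each breed had 1 library and no test was made. The 218 higher and 244 lower genes became 316 and 371 with a pseudocount of 0.1, 84 and 118 with a pseudocount of 5, 107 and 222 at a mean of 5 FPKM or more, 314 and 136 under the median ratio scaling, and 368 and 83 under the common sum. A gap of 2 left 35 and 16, and a gap of 0.5 gave 602 and 1164. Leaving out 1 other library gave 285 to 654 higher and 317 to 1006 lower genes, the top of both ranges without YY. The rule takes the extremes of the others, so leaving out a library can widen a gap but not narrow it. The rise in counts therefore does not measure stability. Without small RNA names and ID-only entries, a setting chosen after the data were seen, they were 186 and 179. Of 752 recomputed gaps of 85 named genes, 711 stayed on their side of the threshold, 41 fell under it and 0 changed sign. Where a library was left out, a gap could not shrink. Of 329 recomputed list medians 25, in 13 lists, changed sign. Under the median ratio scaling triglyceride assembly turned to 0.10, fatty acid uptake to 0.0016, slow fibre genes to 0.062, fast fibre genes to 0.16 and calcium handling to 0.12. Under the common sum the same lists turned to 0.18, 0.12, 0.17, 0.28 and 0.23, lipolysis to 0.10, embryonic fibre genes to 0.028 and clock genes to 0.084. Embryonic fibre genes were at 0.027 without the filter on level, and myogenic factors at −0.059 with a mean of at least 5 FPKM. With 1 library left out, medians ranged from −0.38 to 0.067 for calcium handling, −0.083 to 0.12 for chromatin regulators, −0.15 to 0.29 for the citric acid cycle, −0.43 to 0.37 for fast fibre genes, −0.027 to 0.78 for glycolysis, −0.071 to 0.88 for muscle identity, −0.32 to 0.037 for slow fibre genes and −0.044 to 0.15 for triglyceride assembly. The cause was not tested. Depth is unknown, so how far low values can be trusted is too.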
